A study of Mus musculus with 2 samples.

Results

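The 10 genes described here encode G protein alpha subunits and proteins that limit G protein signalling. They are the G protein alpha subunits Gnai2, Gnai3, Gna13 and Gna15, the regulators of G protein signalling Rgs1, Rgs2, Rgs14, Rgs18 and Rgs19, and the receptor kinase Grk2. They were taken by symbol from a list, and all 10 were found among the 55450 annotated genes of the main gene table. Total RNA was sequenced in 2 libraries, labelled as biological replicates 1 and 2 of 1 group, from neutrophils of the peripheral blood of adult C57BL/6J mice aged 5 to 6 weeks. No allele or treatment is named for either library. Both libraries carry the same donor identifier, so the spread between them may be technical, and with 1 group no test between conditions was possible. Levels are TPM, an abundance scale in which counts are divided by transcript length and set to the same total in each library. Protein-coding genes held only 8.98% of the TPM in replicate 1 and 8.51% in replicate 2. Their levels here are therefore far lower than on a scale of protein-coding genes alone.

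Chemoattractant receptors on neutrophils signal mainly through heterotrimeric G proteins of the Gi class. An active receptor makes the alpha subunit exchange GDP for GTP, after which alpha and the beta-gamma pair separate and each acts on its own targets. RGS proteins speed the hydrolysis of GTP by the alpha subunit and so end the signal, while G protein receptor kinases phosphorylate active receptors, which arrestins then bind. In neutrophils this pathway is best known for directed migration and for holding cells in, or releasing them from, bone marrow and blood.

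The labelled cell type was checked against markers of neutrophils and of other blood cells. All 12 neutrophil markers were detected, which means 1 TPM or more in each library, with a summed level of 2547 TPM in replicate 1 and 2572 in replicate 2. The calprotectin subunit gene S100a9 stood highest, at 1123 and 1275 TPM, ahead of its partner S100a8 at 786 and 712. Ly6g, the usual surface marker of mouse neutrophils, was lowest at 1.91 and 2.29 TPM. All 12 B-cell markers were detected too, with sums of 799 and 715 TPM. Their highest members were the immunoglobulin heavy-chain genes Ighm (290 and 261 TPM) and Ighd (85.3 and 78.8), and the complement receptor Cr2 was lowest at 16.4 and 13.5. The median TPM of the B-cell list, 45.9 ± 4.75 (SD, n = 2), lay within the spread of that of the neutrophil list, 47.4 ± 1.88.

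Markers of other blood cells summed to lower levels, apart from those of red cells. T-cell markers summed to 33.4 and 32.4 TPM with 8 of 9 detected. Cd3g (7.74 and 6.62 TPM) and Trbc2 (6.32 and 6.66) led that list, and Cd4 stood at 0.58 in both libraries. Monocyte markers summed to 23.5 and 21.4 TPM with 4 of 6 detected, led by Csf1r (7.74 and 6.75) and Ly6c2 (7.21 and 6.83), with Ace lowest at 0.64 and 0.42. Platelet markers summed to 24.9 and 25.4 TPM with 5 of 8 detected, led by Ppbp (8.70 and 8.77) and Tubb1 (5.31 and 5.82), with Gp6 lowest at 0.28 and 0.39. Red-cell markers summed to 4328 and 4263 TPM with 5 of 7 detected. That sum came mainly from the globin genes Hba-a2 (2897 and 2891) and Hbb-bs (874 and 829), while the precursor factor Klf1 had 0 and 2 counts. How much of the level of any of the 10 genes came from cells other than neutrophils was not tested, and in bulk RNA the number of cells of a type and the RNA per cell cannot be told apart.

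All 10 genes were detected in both libraries, where 35% of the 21951 annotated protein-coding genes were, and 7 of the 10 had at least 5 TPM in both. The 10 genes were chosen with earlier results of these data known, so that share is background only and no test of the set. Their levels spanned 81.9-fold, from Gnai2 down to Gna15, in the order Gnai2, Grk2, Rgs2, Rgs19, Gnai3, Rgs14, Gna13, Rgs18, Rgs1 and Gna15. Of the 9 neighbouring pairs in that order, 8 had values that did not overlap between the 2 libraries. The exception was Rgs14 (7.34 and 7.37 TPM) beside Gna13 (8.20 and 6.50), whose order turned between the libraries. In the gene table of the older annotation, GENCODE M4, the mean of Gna13 (7.43 TPM) stood above that of Rgs14 (6.575). On 2 other scales, chosen after seeing the data, counts were divided by the length of all exons of a gene merged, or TPM was summed over protein-coding transcripts only. On both of them the mean of Gna13 stood above that of Rgs14 and the mean of Gna15 above that of Rgs1, and on merged exons Gnai3 also stood above Rgs19. Rgs19 stood 1.19-fold and 1.22-fold above Gnai3, and Rgs1 1.05-fold and 1.60-fold above Gna15. For Rgs1 and Gna15 the deposited interval of each TPM covered the value of the other gene in replicate 1.

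**Figure D1:**
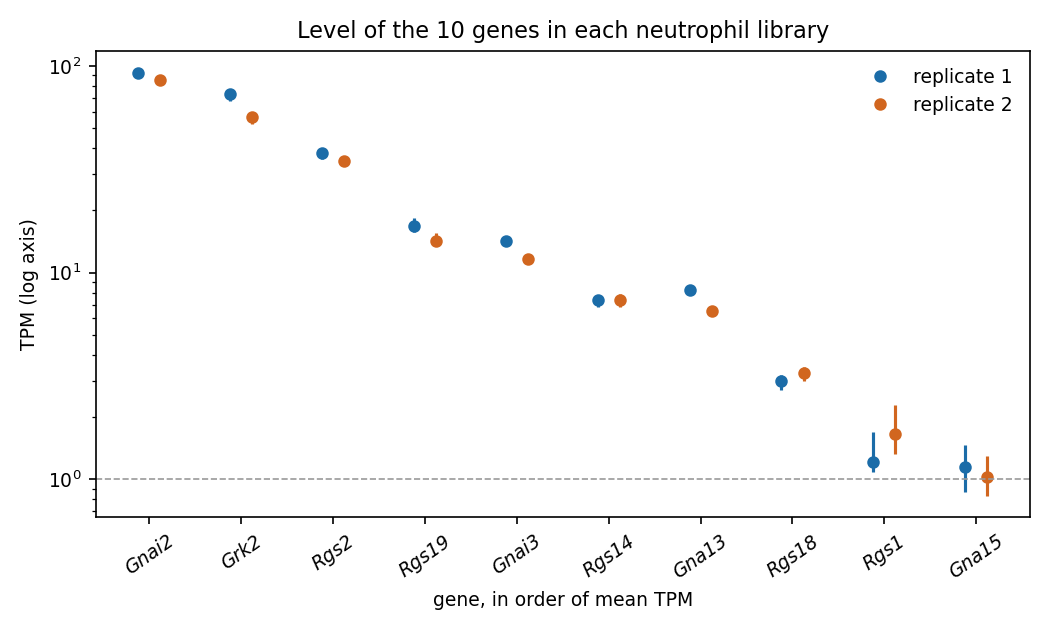
TPM (log axis) of the 10 genes in replicate 1 (blue) and replicate 2 (orange), in order of mean TPM; vertical lines are the interval bounds deposited by the authors and the dashed line is the detection threshold of 1 TPM. Gnai2 and Grk2 stand highest in both libraries, and the intervals of Gna15 cross the threshold in both.

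The alpha subunits are told apart at their last residues, which face the receptor. The final 30 coding bases of the 4 genes are shown for that reason, read 5′ to 3′ from the GENCODE M21 transcripts. The capitals mark the codon at the place where Gi alpha proteins carry the cysteine that pertussis toxin modifies, the reaction that made this toxin the classical tool for Gi signalling in neutrophils.
Gnai2: aagaacaacctgaaggacTGTggcctcttc
Gnai3: aaaaacaacttaaaggaaTGTgggctttat
Gna13: catgacaacctgaagcagCTCatgctgcag
Gna15: gcccggtacctggacgagATCaacctgctg
Gnai2 and Gnai3 both have a cysteine codon there, and Gna13, of the G12 class, and Gna15, of the Gq class, have other codons. On GRCm38 these stretches lie on chromosome 9 at 107615638 to 107615667 (Gnai2, minus strand), chromosome 3 at 108109425 to 108109454 (Gnai3, minus), chromosome 11 at 109396454 to 109396483 (Gna13, plus) and chromosome 10 at 81502882 to 81502911 (Gna15, minus).

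Gnai2, on chromosome 9 from 107614125 to 107635367, encodes the Gi alpha subunit best known in leukocytes and was the most abundant of the 10 genes. It stood at 92.9 TPM in replicate 1 and 85.6 in replicate 2, a mean of 89.3 ± 5.16 (SD, n = 2) from 15326 and 14444 expected counts. That level placed it at percentile 99.5 of the protein-coding genes encoded in the nucleus. Gnai3, on chromosome 3 from 108107280 to 108146146, had 14.2 and 11.7 TPM (12.9 ± 1.79) from 4293 and 3555 counts. The third Gi gene, Gnai1, had 0.01 and 0.04 TPM, from 3 and 12 counts. Gnai2 took 87.4 ± 0.873% of the summed TPM of Gnai1, Gnai2 and Gnai3, with 86.8% in replicate 1 and 88.0% in replicate 2.

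That share rests on how length is counted. On the scale of merged exons Gnai2 had 76.6 ± 1.60% of the 3 Gi genes. Gnai3 has a single annotated transcript of 3262 nt. Gnai2 has 10 annotated transcripts, whose merged exons span 3779 nt against 1777 and 2215 nt for its leading pair. Gnai2 stayed the highest of the 10 genes on both scales.

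Gna13 and Gna15 carry the signal of other G protein classes. Gna13, on chromosome 11 from 109362831 to 109401369, encodes an alpha subunit that activates the small GTPase RhoA and had 8.20 and 6.50 TPM (7.35 ± 1.20) from 4406 and 3623 counts. It held 89.0 ± 2.29% of the TPM of the G12 class, since Gna12 had 0.85 and 0.94 TPM. Gna15, on chromosome 10 from 81502306 to 81524225, encodes the Gq-class subunit of blood cells and was the lowest member, with 1.15 and 1.03 TPM (1.09 ± 0.0849) from 111 and 123 counts. Its deposited intervals ran from 0.872 to 1.47 TPM in replicate 1 and from 0.833 to 1.30 in replicate 2, so they include the detection threshold. With TPM rescaled over the protein-coding genes encoded in the nucleus, Gna15 stood at 12.7 ± 0.505. Gna15 held 17.3 ± 3.73% of the TPM of the 4 Gq-class genes, less than Gnaq, which stood at 3.45 and 3.80 TPM.

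Over all 16 G alpha genes the Gi and related class led. It held 72.4 ± 0.978% of their summed TPM, against 17.2 ± 0.601% for the Gs class, 5.82 ± 0.496% for the G12 class and 4.55 ± 0.872% for the Gq class. Gnai2 alone held 63.1 ± 0.292%. Gnas, the gene of Gs alpha and no member of the 10, was the second highest G alpha gene by TPM, with 24.5 and 23.9. On merged exons, which span 11186 nt for Gnas, the Gs share was 5.14 ± 0.163% and the G12 share 10.9 ± 0.517%. Their order turned on that scale only, where Gnas also stood below Gnai3 and Gna13. The Gs share stayed the larger with M4, at 17.2% against 5.82%. It was also larger in the table made without alignment (19.1% against 5.77%) and by coding transcripts only (17.9% against 6.41%). A total of 7 of the 16 were detected, beside 35% of annotated protein-coding genes. Gnat2 and Gnat3, the cone and taste transducins, had 0 counts in both libraries, which allows up to 0.132 CPM, a count relative to library depth, in replicate 1 and 0.140 in replicate 2.

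Rgs2 and Rgs19 led the RGS genes of the set, and Rgs1 was the lowest. Rgs2 encodes a small RGS protein that acts most strongly on Gq alpha and had 37.8 and 34.8 TPM (36.3 ± 2.07) from 7153 and 7540 counts. Rgs19, which acts on Gi-class alpha subunits, had 16.9 and 14.3 TPM (15.6 ± 1.86) from 1696 and 1682 counts. Rgs14, which has a second domain that binds inactive Gi alpha, had 7.34 and 7.37 TPM (7.36 ± 0.0212) from 1399 and 1433 counts. Rgs18, best known in platelets and their precursors, had 3.0 and 3.27 TPM (3.14 ± 0.191) from 548 and 602 counts. Rgs1, known as a brake on chemokine receptors in B cells, had 1.21 and 1.65 TPM (1.43 ± 0.311) from 391 and 314 counts.

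Rgs2 took 45.3 ± 0.109% of the summed TPM of 21 RGS genes, Rgs19 19.4 ± 1.26%, Rgs14 9.21 ± 0.530%, Rgs18 3.93 ± 0.454% and Rgs1 1.80 ± 0.487%. Together the 5 held 79.7 ± 0.101%. Most of the rest was Rgs3, which is not one of the 10 and had 14.3 and 12.7 TPM, 16.8 ± 0.503% of the family. On merged exons Rgs3 held 5.64 ± 0.469% and Rgs18 held 7.51 ± 0.329%, so Rgs18 stood above Rgs3 there, and the 5 genes together held 91.6 ± 0.247%. Of the 21 genes 7 were detected, beside 35% of annotated protein-coding genes, and 5 had 0 counts in both libraries. The median log2(TPM + 1) of the 5 RGS genes was 3.06 in replicate 1 and 3.07 in replicate 2, against 3.56 and 3.28 for the 4 alpha subunits, a difference of -0.36 ± 0.20 (SD, n = 2). The RGS median was the lower one in both libraries. The difference was -1.32 ± 0.21 on merged exons and -1.0 ± 0.28 on coding transcripts only, but -0.18 ± 0.21 in the table made without alignment, which is within its spread.

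Grk2, on chromosome 19 from 4286001 to 4306222, encodes the kinase that desensitises many receptors and is drawn to the membrane by free beta-gamma. It was the second most abundant of the 10 genes, with 73.0 TPM in replicate 1 and 56.4 in replicate 2 (64.7 ± 11.7) from 11671 and 11084 counts. Grk2 held 65.3 ± 3.07% of the summed TPM of 6 GRK genes. The next, Grk6, had 31.9 and 29.5 TPM, Grk5 had 1.62 and 1.56, and the retinal kinase gene Grk1 had 0 counts in both libraries.

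The 10 genes differed in how much of their level was assigned to transcripts annotated as protein coding, a class that also holds incomplete fragments. GENCODE labels transcripts as protein coding, as retaining an intron, or as targets of nonsense-mediated decay, the pathway that removes RNAs with an early stop codon. Gnai3 and Rgs18 have 1 transcript each, and Gna13 has only coding ones. Protein-coding transcripts held at least 90.8% of the TPM of Gnai2 and 87.5% of that of Rgs19. For Rgs1 they held 21.3% in replicate 1 and 7.47% in replicate 2. Summed over protein-coding transcripts only, 8 of the 10 genes still had at least 1 TPM in both libraries. The other two were Gna15 (0.40 and 0.43 TPM) and Rgs1 (0.26 and 0.12).

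**Figure D2:**
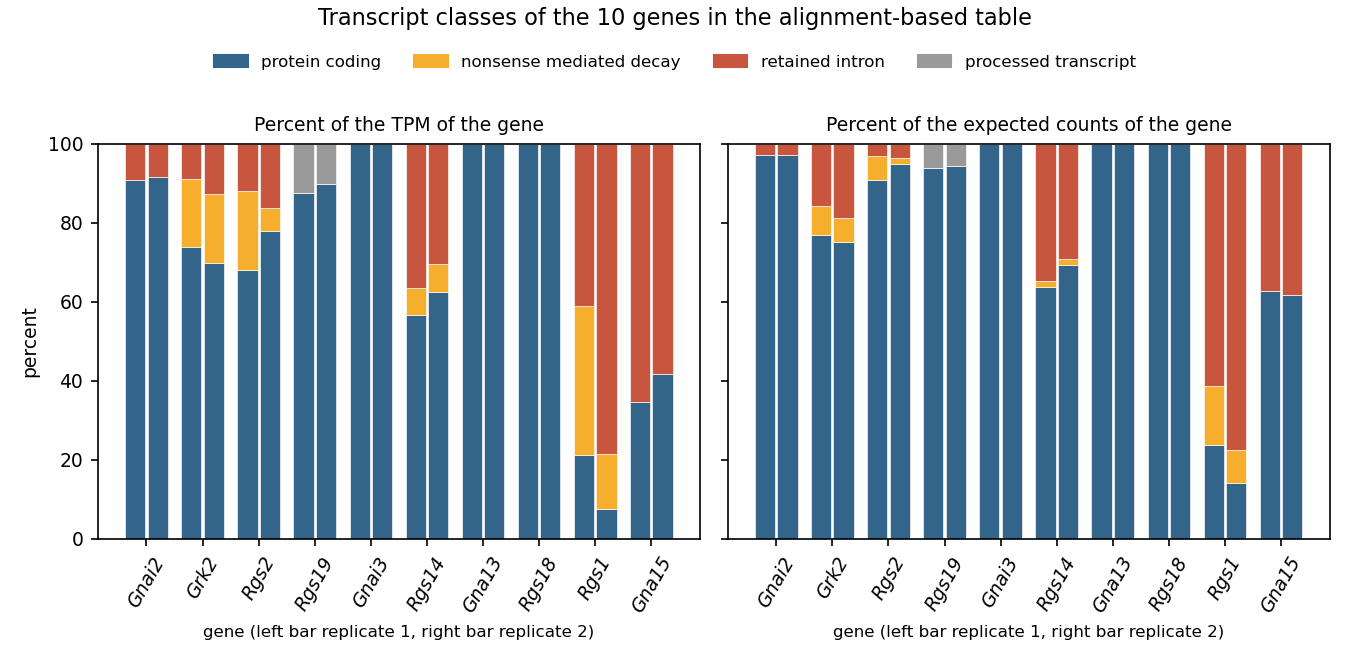
Percent of each gene's TPM (left panel) and of its expected counts (right panel) by transcript class, stacked to 100 (the grey class, processed transcripts, are non-coding forms of Rgs19), with replicate 1 as the left bar and replicate 2 as the right bar of each pair. Rgs1 and Gna15 have the largest shares of retained-intron transcripts. The protein-coding share is larger by counts than by TPM for every gene with several classes, most of all for Gna15 and Rgs2.

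Rgs1 lies on chromosome 1 from 144242296 to 144249242 on the minus strand. Its transcript with the most counts was Rgs1-205, a single unspliced exon of 5843 nt, which took 60.8% of the counts of the gene in replicate 1 and 70.1% in replicate 2, and 35.4% and 23.8% of its TPM. Rgs1-208, the spliced coding transcript, took 23.7% and 14.2% of the counts and 21.3% and 7.47% of the TPM. Rgs1-204, marked for decay, took 26.6% and 13.9% of the TPM. The leading transcript by TPM in replicate 2 was another retained-intron transcript, Rgs1-203 of 414 nt, at 54.8% of the TPM from 22.7 counts, against 5.55% from 1.63 counts in replicate 1. Rgs1-203 alone had 0.07 TPM in replicate 1 and 0.91 in replicate 2, beside 1.21 and 1.65 for the whole gene.

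Rgs2, on chromosome 1 from 143999338 to 144004161, had a different leading transcript in each kind of table. In the alignment-based table the coding transcript Rgs2-202 led with 60.6% and 72.1% of the TPM and 89.2% and 93.7% of the counts, and the decay transcript Rgs2-201 had 19.97% and 5.69% of the TPM. In the alignment-free table, which assigns reads to transcripts without an alignment among its parents, Rgs2-201 led instead with 53.9% and 46.6% against 28.6% and 35.7% for Rgs2-202. Rgs2-203, which retains an intron, had 11.9% and 16.3% of the TPM in the alignment-based table. The bases around the end of exon 2 of Rgs2-202 are shown because the forms part there, with the stop codon of Rgs2-201 in capitals.
Rgs2-202: gcaaacttttatcaagccttctcctgagga
Rgs2-201: gcaaacttttatcaagTAAgtttcggatcc
Rgs2-201 keeps an intron of 110 bases, at 144002842 to 144002951 on chromosome 1, and reads into the stop after a single base of it.

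The gene level of Rgs2 shifted with the table as well. Values were higher in the alignment-free table for all 10 genes, as for most protein-coding genes, and relative to the median shift of detected protein-coding genes Rgs2 was 1.30 ± 0.00872 times as high (SD, n = 2). The other 9 genes had means between 0.787 and 1.01 times that shift. In that table Rgs2 stood at 86.0 ± 8.28 TPM, behind Gnai2 at 134 ± 12.1 and Grk2 at 101 ± 17.5, so the order of all 10 genes was the same.

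Gnai2 had a pair of leading transcripts that encode the same protein. Gnai2-202 took 45.2% and 46.7% of the TPM and Gnai2-201 took 44.2% and 44.3%, and their coding sequences of 1065 bases are identical. Gnai2-201 has 438 bases more, all outside the coding sequence. The alignment-free table gave the reverse order by TPM, with 54.1% and 54.8% for Gnai2-201. By counts Gnai2-201 led in the alignment-based table too, with 53.7% and 53.1% against 43.2% and 44.1% for Gnai2-202. Gna13-201 held 90.5% and 93.7% of the TPM of Gna13, and the shorter Gna13-202 held the rest.

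Gna15 had 3 transcripts and, in the alignment-based table, a different leader by TPM in each library. The coding Gna15-201 took 34.6% and 41.7% of the TPM but 62.9% and 61.8% of the counts. Of the retained-intron transcripts, Gna15-203 took 54.1% in replicate 1 and 13.8% in replicate 2, and Gna15-202 took 11.3% and 44.5%. With 111 and 123 counts for the whole gene, these shares rest on few reads. In the alignment-free table Gna15-201 led in both libraries, with 48.1% and 52.5% of the TPM.

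Rgs14, on chromosome 13 from 55369732 to 55384687, was led by its coding transcript Rgs14-201 with 56.7% and 62.4% of the TPM. Retained-intron transcripts Rgs14-202 (24.4% and 18.1%) and Rgs14-204 (12.1% and 12.2%) held most of the rest. Rgs19, on chromosome 2 from 181688419 to 181693977, has 12 annotated transcripts, of which the coding Rgs19-201 led with 42.9% and 57.7%. The next highest was Rgs19-211 in replicate 1 (15.9%, against 4.76% in replicate 2) and Rgs19-202 in replicate 2 (17.8%, against 13.9% in replicate 1). Rgs18, on chromosome 1 from 144752683 to 144775435, has the single transcript Rgs18-201 of 2031 nt.

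For Grk2 the transcript with the largest share of TPM in replicate 1 was Grk2-207, a coding fragment of 261 nt. It took 33.4% of the TPM in replicate 1 and 21.8% in replicate 2, from only 2.05% and 1.16% of the counts. Grk2-201, with 1941 coding bases, had 17.9% and 30.6% of the TPM, and Grk2-202, with 2067, had 21.3% and 17.3%. By counts Grk2-201 held 32.9% and 46.2%, and Grk2-202 held 41.7% and 27.8%. The decay transcript Grk2-209 held 17.2% and 17.3% of the TPM, and Grk2-203, which retains an intron, 7.66% and 11.1%. The alignment-free table differed, with Grk2-202 leading at 34.2% and 41.1% of the TPM. It gave 26.1% and 28.6% to Grk2-206, a fragment of 403 nt that had 0.88% and 0% in the alignment-based table, 10.5% and 0% to Grk2-207, and 5.32% and 5.75% to Grk2-201. In the alignment-based table Grk2-207 stood at 24.4 TPM in replicate 1 and 12.3 in replicate 2, beside 73.0 and 56.4 for the whole gene.

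The same transcript led in both kinds of table and both libraries for 5 of the 10 genes, Gnai3, Gna13, Rgs14, Rgs18 and Rgs19, and 2 of those have 1 transcript only. Annotated neighbours overlap some of the genes, and whether the tables used strand is not given in the sources used here. Gm19721, on the same strand as Gnai2, had 477 and 482 counts beside 15326 and 14444 for Gnai2. Gm11696, antisense to Gna13, had 106 and 114, and the pseudogene Gm16106, opposite Gna15, had 6 and 0 counts.

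Between the libraries, 0 of the 10 genes differed 2-fold in (TPM + 1) in either direction, where 0.924% of the 9095 genes tested did (0.561% higher and 0.363% lower in replicate 2). By TPM, 3 of the 10 were higher in replicate 2 and 7 lower, with a median log2 ratio of -0.12 against -0.08 for all genes tested. Expected counts per library total gave ratios of replicate 2 to replicate 1 from 0.847 for Rgs1 to 1.17 for Gna15. The exact binomial 95% interval, which covers counting error only, excluded 1 for 6 of the 10 genes, where it did so for 43.2% of the 9095 genes tested (18.5% higher and 24.7% lower in replicate 2). Gnai3 (0.873, 0.835 to 0.913), Gna13 (0.867, 0.830 to 0.906) and Rgs1 (0.847, 0.728 to 0.985) were lower in replicate 2. Rgs2 (1.11, 1.08 to 1.15), Rgs14 (1.08, 1.003 to 1.16) and Rgs18 (1.16, 1.03 to 1.30) were higher. The interval of Rgs14 only just excluded 1.

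Counts and TPM gave opposite directions for some genes. Rgs1 had a TPM ratio of 1.36 but a count ratio of 0.847, and Rgs2 a TPM ratio of 0.922 but a count ratio of 1.11. The TPM of Grk2 was 0.772 times as high in replicate 2, while its count ratio was 1.00 (0.976 to 1.03). Gnai2 was close to 1 by counts, at 0.994 (0.972 to 1.02). Rgs19 had a TPM ratio of 0.844 and a count ratio of 1.05 (0.977 to 1.12). Gna15, with the fewest counts, had a TPM ratio of 0.896 and a count ratio of 1.17 with the widest interval, 0.897 to 1.52.

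**Figure D3:**
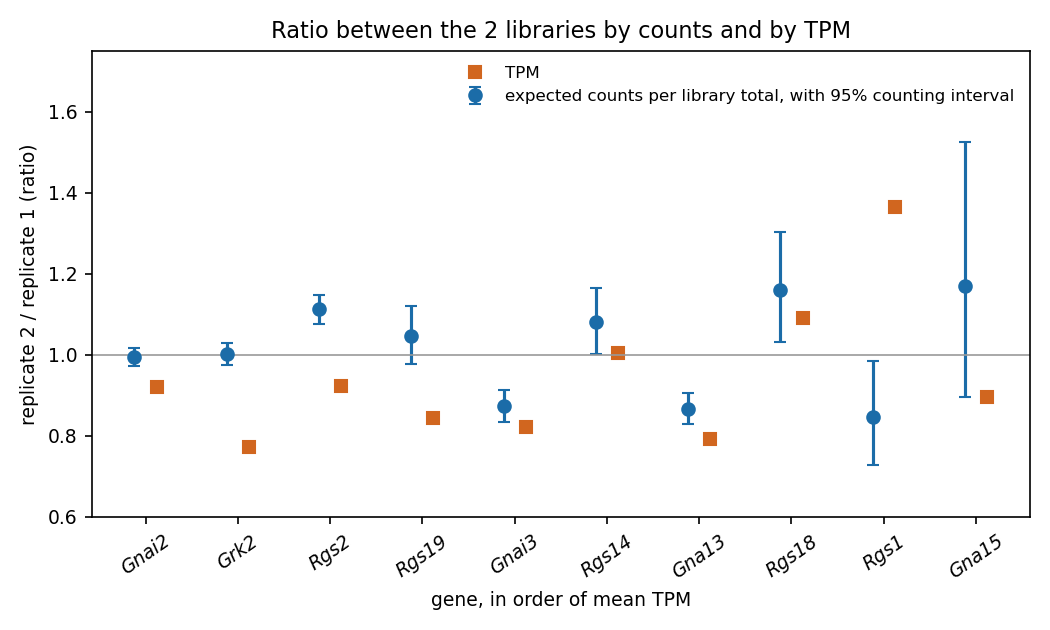
Ratio of replicate 2 to replicate 1 (linear axis) for each of the 10 genes, by expected counts per library total with the exact 95% counting interval (blue circles) and by TPM (orange squares); the grey line marks a ratio of 1. Rgs1 lies above 1 by TPM and below 1 by counts, and Rgs2, Rgs19 and Gna15 lie below 1 by TPM and above 1 by counts. The counting intervals of Rgs19 and Gna15 include 1.

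Rgs1, Rgs2 and Rgs18 are neighbours. They lie with Rgs13 and Rgs21 in a stretch of 776 kb on chromosome 1, from 143999338 to 144775435, with 3 other genes between them and no other protein-coding gene. Within it the levels ran from Rgs2 at 37.8 and 34.8 TPM, through Rgs18 and Rgs1, to Rgs13, which had 0.03 TPM in both libraries from 4 counts in each, and Rgs21, with 1 count in replicate 1 and none in replicate 2. The cluster held both the highest of the 21 RGS genes and genes near 0.

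RefSeq's table of promoter windows (GRCm38.p6) lists Rgs2, Rgs13 and Rgs21 of this cluster. The windows of Rgs2, its highest gene, and of Rgs13, a gene near 0 with a window free of CG pairs, are shown. Each gives the 100 bases before the RefSeq start, with CG pairs in capitals.
Rgs2: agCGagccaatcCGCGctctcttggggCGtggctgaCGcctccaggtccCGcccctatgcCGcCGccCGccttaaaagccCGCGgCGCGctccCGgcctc
Rgs13: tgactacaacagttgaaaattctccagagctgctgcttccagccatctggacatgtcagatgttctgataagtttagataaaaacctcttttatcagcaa
They lie on the minus strand of chromosome 1, at 144004150 to 144004249 and at 144177373 to 144177472. The bases shown hold 14 CG pairs for Rgs2 and 0 for Rgs13. Over the full 250 bases before the start, Rgs2 had 30, Rgs13 had 0 and Rgs21 had 2, against a median of 6 over 32851 windows. Windows of the table matched 5 of the 10 genes. Gna13 had 33 CG pairs, Gnai3 18 and Gna15 4, and the 3 windows of Rgs19 had 20, 34 and 4. Searched on both strands, the GC box GGGCGG was found in windows of Rgs2, Gna13 and Rgs19, and in 32.7% of all windows. The box CCAAT was found in that of Rgs2 alone of these, and in 33.8% of all windows. TATAAA, TGACGTCA and TGACTCA were in none of these windows, and in 12.4%, 1.55% and 4.46% of all.

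The other genes of the pathway were taken from lists of G protein subunits, regulators and effectors, 84 genes in all with the 10. Of these 40 were detected, 30 of them among the 74 others, beside 35% of the 21951 annotated protein-coding genes. That share is also the background for the count of each list below. Among 5 beta subunit genes 2 were detected, Gnb2 (37.3 and 34.8 TPM) and Gnb1 (10.3 and 11.6), and Gnb3, the cone form, was lowest at 0.06 and 0. Among 12 gamma subunit genes 6 were detected and 4 had 0 counts. The highest gamma genes were Gng5 (12.5 and 13.4 TPM), Gngt2 (10.5 and 11.9) and Gng2 (6.56 and 5.44). Every beta and gamma gene of these lists was below Gnai2 in both libraries.

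Of the 8 GRK and arrestin genes 5 were detected. The arrestins that bind phosphorylated receptors stood at 25.8 and 22.6 TPM (Arrb2) and 8.18 and 6.66 (Arrb1), below Grk2. Among 6 other regulators of G alpha 4 were detected. Gpsm3, which binds inactive Gi alpha, had 18.8 and 15.3 TPM, Ric8a, a chaperone of G alpha, had 10.3 and 10.4, and Gpsm2 was lowest at 0.15 and 0.13.

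The effectors, which act after the G proteins, had 9 of 16 genes detected. Arhgef1, an exchange factor through which Gna13 activates RhoA, was highest with 40.7 and 38.5 TPM. Prex1, a Rac exchange factor that responds to beta-gamma, had 10.3 and 9.05 TPM. Pik3r5, a regulatory subunit of PI3K gamma, had 9.32 and 8.83, the adenylyl cyclase gene Adcy7 9.18 and 8.60, and the phospholipase gene Plcb2 7.78 and 7.11. Adcy4 was lowest at 0 and 0.04 TPM.

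All 11 Gi-coupled receptor genes of a separate list were detected. The chemokine receptors Cxcr2 (98.3 and 89.8 TPM) and Cxcr4 (89.2 and 74.9) led, beside 92.9 and 85.6 for Gnai2, followed by Ccr1 (31.1 and 29.3). S1pr1, Ptafr, C5ar1, Fpr1, Fpr2, Hcar2 and S1pr4, receptors for lipids, complement, formyl peptides and metabolites, had means from 13.0 ± 1.20 TPM (S1pr1) to 5.20 ± 0.0778 (S1pr4). Ltb4r1, the leukotriene receptor, was lowest with 1.11 and 1.19.

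**Figure D4:**
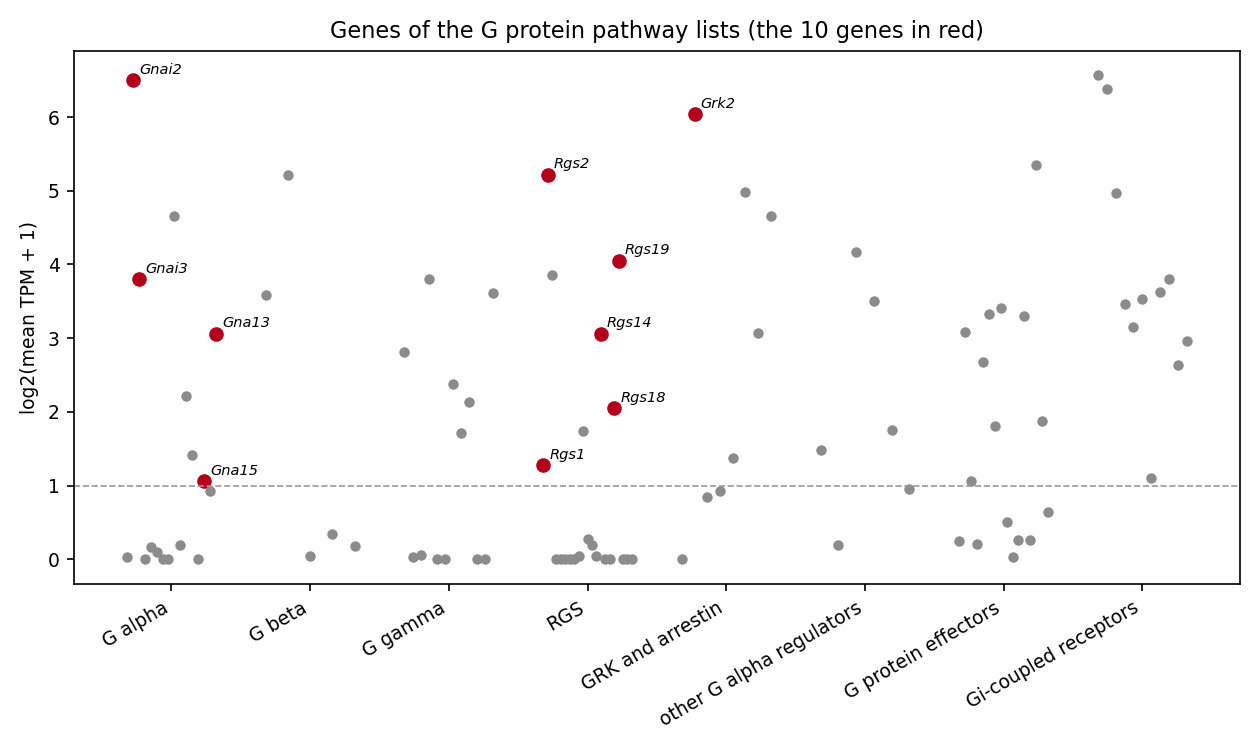
log2(mean TPM + 1) of the genes of each pathway list, where a point is 1 gene and the mean is over the 2 libraries; the 10 genes are red and named, other genes grey, and the dashed line is a mean of 1 TPM. Gnai2, Rgs2 and Grk2 are the highest points of the G alpha, RGS and GRK lists, and many RGS and G gamma genes lie at or near 0.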

How the data were processed

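Per the file headers, the authors deposited an expected count and a TPM for each gene and transcript, and the bounds of an interval of each TPM, a signal-like value whose level is not stated. Also per the file headers, the deposited transcript table gives the percent of the TPM of a gene that each transcript takes. The deposited file list names mm10 and GENCODE M21 (main) or M4, and aligned reads as parents. A further transcript table has no alignment among its parents and is called alignment-free. Programs and strand setting: not given in the sources used here. Per the labels, ScriptSeq v2 was used on 100 ng of total RNA, and the size range is 200 to 1000.

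Symbols were joined by gene ID, and all 148 list genes matched. Depth was 22647028 (replicate 1) and 21471719 (replicate 2) expected counts. Entries without a gene (37.0 and 46.4 counts) were left out. Protein-coding genes held 73.2% and 72.0% of the counts but 8.98% and 8.51% of the TPM. Intervals and limits of a count of 0 (3 counts) cover counting error only.

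The genes and lists were chosen with earlier results of these data known. Named are all 10 genes, list genes with at least 5 TPM in both libraries, the lowest of each list where it is not tied, the chromosome 1 cluster, the 2 highest and the lowest marker of other cells, and per gene the 2 leading transcripts and retained-intron transcripts of at least 5%. Gnai1, Gna12, Gnaq, Grk5 and a few other transcripts were named after their values were seen. Libraries were called apart at a 2-fold ratio of TPM + 1 (a pseudocount of 1), with at least 1 TPM in either and 50 counts in the higher. Counts were rounded for the intervals, TMM factors (edgeR 4.0.16) and size factors (DESeq2 1.42.0, R 4.3.3). The rest used Python 3.11.15, numpy 2.4.6, pandas 2.3.3, scipy 1.17.1 and matplotlib 3.10.9.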

Additional observations from a re-analysis of the deposited data

How the results depend on the processing

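Results were recomputed with the M4 tables, the alignment-free table, TPM rescaled over nuclear protein-coding genes, other thresholds or pseudocounts, and without each replicate. A scale of counts per kb of merged exons, scaled to the library total, and a sum over protein-coding transcripts only, were chosen after seeing the data. At 5 TPM, 24 pathway genes were detected in place of 40, and 56 at 0.1 TPM or on the rescaled TPM, 48 in the alignment-free table, 39 with M4 and 34 by coding transcripts only. The RGS minus G alpha median was -0.18 in the alignment-free table and -0.52 with M4, against -0.36. With M4, 8 of the 10 genes kept their place in the order. By merged exons 4 of the 10 genes kept their place in the order, the Gnai2 share of the Gi genes was 76.6% and the RGS minus G alpha median was -1.32. By coding transcripts only, 6 kept their place, the share was 86.3% and the median difference was -1.0. Without a replicate, the share was 86.8% or 88.0%, the median difference -0.50 or -0.22, and 40 or 41 pathway genes were detected. Of the 10 genes 0 were 2-fold apart between the libraries in any of the 8 settings tried for that comparison. The alignment-free table raised the TPM of all 10 genes by more than the spread between libraries. No paired analysis was possible because there is 1 group. Low counts limit Gna15 and Rgs1 most.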
